A study of Arabidopsis thaliana with 30 samples.

Results

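BBM, EEL and BZIP53 encode transcription factors that act in the Arabidopsis thaliana seed. Their probe sets were found by gene annotation alone: 3 of the 22810 probe sets of the ATH1 GeneChip each named 1 of these genes (BBM at locus AT5G17430, EEL at AT2G41070 and BZIP53 at AT3G62420). On the older AtGenome1 GeneChip, 1 of 8297 probe sets named EEL, and BBM and BZIP53 are not analysed here. All 3 ATH1 probe sets passed the filter on dim signals (100 or more on at least 2 arrays). BBM passed it only through wild-type mature green and post-mature green seed. Tests of BBM that involve those groups are therefore not independent of the filter and serve as description.

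The study profiled Ws-0 seed, wild type or mutant in LEC1, which encodes an NF-Y subunit needed for normal embryo development, all from plants kept under continuous light. On ATH1, 10 groups of 2 arrays, called biological replicas in the labels, covered both genotypes 24 hours after fertilization, at cotyledon, at mature green and at post-mature green. The remaining ATH1 groups were lec1-1 seed at the globular stage and seedlings of the wild type 3 days after imbibition. On AtGenome1, 5 groups of 2 technical replicas, hence 1 sample each, covered both the wild type and a mutant labelled lec1 at 24 hours and at mid-maturation, and the wild type also at late maturation. Each chip thus carried 1 mutant line. LEC1 is not analysed here, since the annotation used named no probe set for it, so no check of the genotype labels on that gene was made. The labels do not say how many plants entered a sample, so p-values measure the spread between these arrays.

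During maturation the embryo stops dividing, fills with oil and storage protein and acquires tolerance to drying, under a network in which LEC1 and the factors ABI3, FUS3 and LEC2 act high up. BBM (BABY BOOM) is a DNA-binding protein of the AP2 family, known for forming somatic embryos on seedlings when it is overexpressed. EEL (ENHANCED EM LEVEL) and BZIP53 are basic leucine zipper (bZIP) proteins, which bind DNA as dimers. EEL belongs to the same group as ABI5 and is known to compete with it at the promoter of an Em gene, one of the late embryogenesis genes. BZIP53 pairs with other bZIP proteins and is known to activate maturation genes, among them those for albumin storage proteins.

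The deposited ATH1 values are signals on a linear scale, each array scaled to a common target of 500 (the labels of the globular arrays state none). Replicate arrays of a group correlated at r = 0.935 to 0.982 over probe sets. The spread between replicates was largest in wild-type post-mature green seed (SD of the log2 difference 0.663) and wild-type mature green seed (0.607), and 0.347 to 0.542 elsewhere. Both groups carry the highest levels of all 3 genes. Array signals below 100 were treated as not above background, and a fold against a group whose arrays were both below 100 is given as "at least", the geometric mean of the brighter group over 100.

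The BBM probe set was dim in young seed and reached its highest signals in wild-type maturing seed. In the wild type it read 3.5 and 3.6 at 24 hours, 95.3 and 83.7 at the cotyledon stage, 216.4 and 285.3 at mature green, 108.4 and 329.7 at post-mature green, and 15.0 and 2.6 in seedlings. The 4 arrays of mature green and post-mature green wild type were the only ones of 20 to reach 100, and those of post-mature green differed 3.04-fold from each other. In lec1-1 seed it read 8.7 and 7.3 at 24 hours, 7.4 and 8.1 at the globular stage, 21.5 and 28.9 at the cotyledon stage, 13.6 and 10.4 at mature green, and 17.1 and 5.5 at post-mature green. All 10 lec1-1 arrays therefore lay below 100, between the 6.5th and the 20.1st percentile of their array, so for BBM in the mutant the data give only an upper bound.

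EEL was dim in young seed and in seedlings and one of the brighter probe sets of maturing seed of both genotypes. Wild-type signals were 80.1 and 98.5 at 24 hours, 410.0 and 412.3 at the cotyledon stage, 10639.7 and 7905.5 at mature green, 11035.9 and 10866.5 at post-mature green, and 68.9 and 49.2 in seedlings. In lec1-1 seed they were 104.0 and 44.5 at 24 hours, 84.0 and 114.0 at the globular stage, 579.4 and 391.9 at the cotyledon stage, 3507.8 and 3759.4 at mature green, and 4409.0 and 4240.6 at post-mature green. The genotypes overlapped at 24 hours and at the cotyledon stage and lay apart at both later stages, where every mutant array was below every wild-type array and far above its own cotyledon arrays.

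BZIP53 was bright in every sample, seedlings included, with signals between 1415.9 and 3649.3 and a percentile of 89.4 to 96.4 on its array. The wild type read 2281.8 and 2092.7 at 24 hours, 2304.6 and 1892.3 at the cotyledon stage, 3244.6 and 2362.4 at mature green, 3328.0 and 3649.3 at post-mature green, and 1549.6 and 1415.9 in seedlings. Mutant seed read 2447.8 and 2480.7 at 24 hours, 2170.4 and 1987.0 at the globular stage, 2372.9 and 2497.7 at the cotyledon stage, 2269.2 and 1725.4 at mature green, and 2024.7 and 1535.5 at post-mature green. Its highest array was 2.58 times its lowest, against 248 times for EEL. The mutant arrays lay above the wild-type arrays at 24 hours and at cotyledon and below them at mature green and post-mature green. Only the post-mature green difference passed the limma threshold, as given below. With 2 arrays per group, such separation can easily arise without a difference, and its share over all probe sets was not counted. The gap was narrow at cotyledon (2372.9 against 2304.6) and at mature green (2269.2 against 2362.4).

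**Figure D1:**
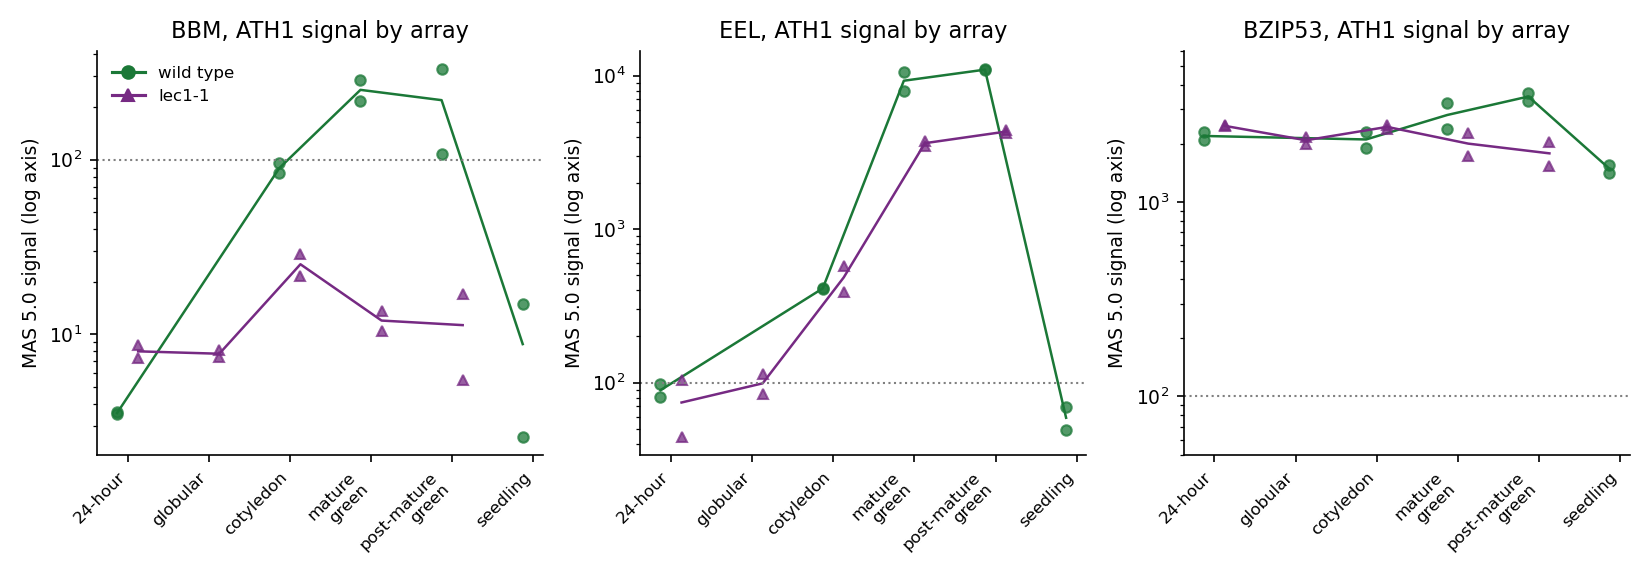
Signal of each ATH1 array (log axis, scaled units) for BBM, EEL and BZIP53 by stage, with wild type and lec1-1 in separate colours; lines join the means of 2 arrays and the dotted line marks 100. BBM is above the line only on the 4 wild-type arrays of mature green and post-mature green seed, EEL climbs in both genotypes, and BZIP53 stays between 1415.9 and 3649.3.

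The first question is where lec1-1 seed differed from wild-type seed of the same stage. At 24 hours, limma gave log2 differences (lec1-1 minus wild type) of 0.12 ± 0.37 for BBM, -0.20 ± 0.23 for EEL and 0.17 ± 0.18 for BZIP53 (SE, n = 2 arrays per group), each with an adjusted p of 1. Of all 18459 probe sets tested, 0.119% passed at this stage in either direction. At the cotyledon stage, where 0.71% passed in either direction, EEL differed by 0.19 ± 0.23 (95% interval -0.28 to 0.66, limma adjusted p = 0.9) and BZIP53 by 0.22 (adjusted p = 0.837). BBM differed there by -0.89 ± 0.37 (interval -1.66 to -0.13), which did not pass (limma adjusted p = 0.461), and every array of both genotypes read below 100.

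At mature green, BBM and EEL were lower in lec1-1 seed. BBM was at least 2.48-fold lower (log2 difference -2.27 ± 0.37, limma adjusted p = 0.000105), and EEL was 2.51-fold lower (-1.32 ± 0.23, adjusted p = 0.000176), at 39.2% of the wild-type mean signal. BZIP53 missed the threshold at -0.47 (95% interval -0.85 to -0.10, adjusted p = 0.0543), and its call depended on single arrays. It passed without wild-type replicate 2 (-0.70, adjusted p = 0.0148), without lec1-1 replicate 1 (-0.67, adjusted p = 0.0282) and with the replicate number as a block (-0.47, adjusted p = 0.0317), while without wild-type replicate 1 it was -0.25 (adjusted p = 0.415). Over all probe sets tested at mature green, 13% passed as lower and 15.7% as higher. A log2 decrease at least as large as that of EEL was found in 806, against 159 for BBM. These counts do not rank the loss of BBM above that of EEL, since dim lec1-1 signals set the size of the BBM difference. Under alternative processing it ranged from -4.27 to -1.31, against -1.54 to -0.96 for EEL. BBM passed the filter only through wild-type seed of this stage and of post-mature green. Its p-values at both stages are therefore not independent of the filter.

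At post-mature green all 3 genes were lower in the mutant. BBM was at least 1.89-fold lower (log2 difference -2.01 ± 0.37, limma adjusted p = 0.000198), EEL 2.52-fold (-1.33, adjusted p = 9.09e-05) and BZIP53 1.95-fold (-0.96, adjusted p = 0.000242). For BBM the limit set by the filter applies here too. The mutant mean signal was 39.5% of the wild type for EEL and 51.0% for BZIP53. For comparison, 20.5% of all probe sets passed as lower and 23.7% as higher at this stage, and 2475 fell at least as far as BZIP53. The BBM value rested on wild-type arrays that differ 3.04-fold: it was -2.64 without wild-type replicate 1 and -1.38 without wild-type replicate 2, and passed both times (adjusted p = 2.21e-05 and 0.00674).

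**Figure D2:**
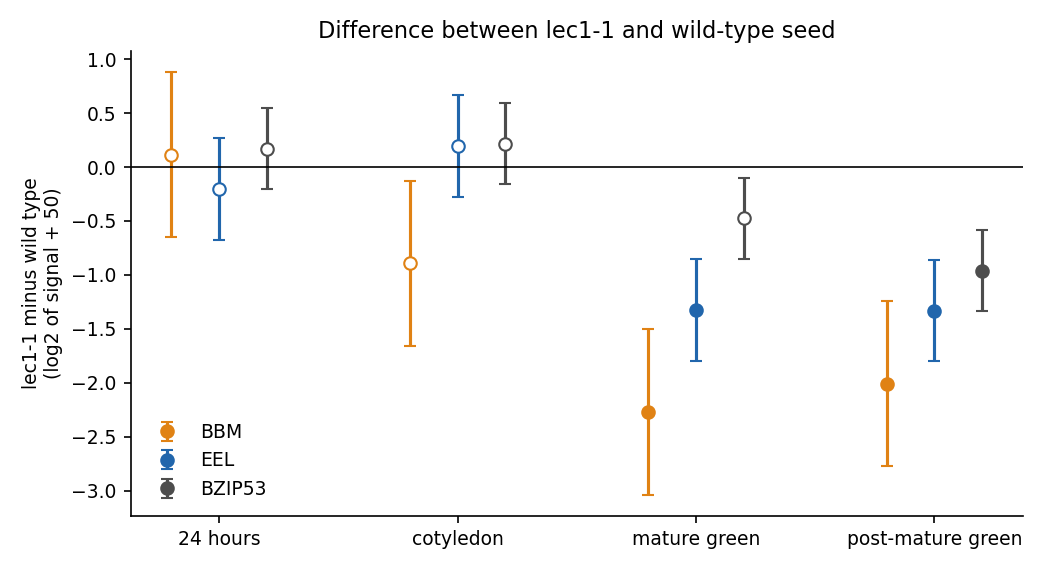
Log2 difference lec1-1 minus wild type (y axis) at the 4 shared stages for BBM, EEL and BZIP53, with 95% intervals from limma; filled points passed the threshold. EEL and BBM passed at mature green and post-mature green, BZIP53 at post-mature green, and the interval of EEL at the cotyledon stage runs from -0.28 to 0.66.

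A lot number stood in the labels of all wild-type arrays at 24 hours, cotyledon and mature green, of wild-type post-mature green replicate 1 and of lec1-1 24-hour replicate 1, and of no other array. At the cotyledon and mature green stages lot and genotype therefore cannot be told apart within the stage. With the lot statement as a covariate, the mature green difference was -2.88 for BBM (limma adjusted p = 0.000486), -0.96 for EEL (adjusted p = 0.036) and -0.55 for BZIP53 (adjusted p = 0.166). This covariate is estimated only from wild-type post-mature green and lec1-1 24-hour seed, where 1 array of the group states a lot number. Its use at mature green assumes the same difference between arrays with and without a number there. For BBM it rests in part on the post-mature green pair that differed 3.04-fold. Within the post-mature green arrays without a lot number (1 wild type, 2 lec1-1), BBM differed by -2.64, EEL by -1.32 and BZIP53 by -1.03, each past the limma threshold, where the lone wild-type array is assumed to vary like the arrays of the other groups. At 24 hours, the 1 lec1-1 array with a lot number, under the same assumption, differed from the wild type by 0.13 for BBM, 0.15 for EEL and 0.16 for BZIP53, none past the threshold.

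Whole seed was sampled, so fewer cells of a type and less RNA per cell cannot be told apart. Of 8 embryo markers listed, none was named on the chip. Of the 9 seed coat markers, BAN and DELTA-VPE were named, and their summed signal was 7823.7 to 12555.7 in the wild type against 6047.6 to 8529.3 in lec1-1 at mature green, and 537.6 to 602.8 against 292.9 to 366.4 at post-mature green. DELTA-VPE, a seed coat protease, passed as lower at post-mature green (log2 difference -0.63, limma adjusted p = 0.0417). That call was lost under 9 of 14 alternatives, among them leaving out any 1 of the 4 arrays of that stage. ALC, a fruit gene and the only 1 of 5 silique wall markers named, was 179.3 to 190.6 in the wild type against 347.1 to 471.1 in lec1-1 at mature green (0.95, adjusted p = 0.000256), a call lost in 1 of 14 alternatives, the fit of only these groups (adjusted p = 0.0781). At post-mature green ALC was 133.6 to 146.5 against 392.9 to 402.6. AGL62 and IKU2, named of 7 endosperm markers, summed to between 11.1 and 191.9 on all arrays. The part of these markers in the differences of BBM, EEL and BZIP53 was not tested.

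The next question is whether the mutant difference itself changed from stage to stage. For EEL it grew by -1.52 ± 0.32 on the log2 scale between cotyledon and mature green (limma adjusted p = 0.00229), where 7.82% of all probe sets passed in that direction. The same change was -1.38 ± 0.52 for BBM (adjusted p = 0.0724) and -0.69 ± 0.25 for BZIP53 (adjusted p = 0.0658), neither past the threshold. BZIP53 passed with the replicate block (adjusted p = 0.0394), without wild-type mature green replicate 2 (-0.92, adjusted p = 0.0187) and without lec1-1 mature green replicate 1 (-0.88, adjusted p = 0.0324).

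Between 24 hours and cotyledon the mutant difference moved by -1.01 for BBM (limma adjusted p = 0.802), 0.40 for EEL (0.957) and 0.05 for BZIP53 (0.999), with 0.228% of all probe sets passing as lower. From mature green to post-mature green it moved by 0.26 for BBM (adjusted p = 0.786), -0.01 for EEL (0.993) and -0.49 for BZIP53 (0.209), with 5.91% passing as lower. The EEL deficit was -1.32 at mature green and -1.33 at post-mature green, and the 95% interval of that change ran from -0.67 to 0.66. In the joint F test over these 3 changes, which 36.7% of all probe sets passed, EEL had F = 12.1 (adjusted p = 0.000975), BZIP53 F = 9.89 (adjusted p = 0.00244) and BBM F = 8.98 (adjusted p = 0.0037). The BBM value is subject to the same limit of the filter.

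Through wild-type development EEL made the largest steps of the 3 genes on this scale, except from mature green to post-mature green. From 24 hours to cotyledon EEL rose at least 4.11-fold (log2 difference 1.73, limma adjusted p = 8.52e-06) and BZIP53 differed by -0.06 (adjusted p = 0.856), against 24.4% of all probe sets passing in either direction. BBM passed there too (1.38, adjusted p = 0.00866), but all 4 arrays read below 100, so no fold is given. With signals floored at 100 its difference was 0. Its highest value under the alternatives was 4.31, against 2.20 for EEL, so the order of these 2 genes depends on the processing. From cotyledon to mature green EEL rose 20.0-fold (4.32, adjusted p = 2.59e-11), a log2 increase matched or exceeded by 146 probe sets. BBM rose at least 2.48-fold in the same step (1.10, adjusted p = 0.0262), and BZIP53 differed by 0.40 (adjusted p = 0.0986), where 14.4% passed as higher. The BBM call was lost when any 1 of the 4 arrays was left out (0.94 to 1.27, adjusted p = 0.0502 to 0.13).

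From mature green to post-mature green none of the 3 passed in the wild type, a step in which 35.4% of all probe sets passed in either direction. The log2 differences were -0.29 for BBM (limma adjusted p = 0.588), 0.25 for EEL (0.41) and 0.33 for BZIP53 (0.171), the last passing without wild-type mature green replicate 1 (0.55, adjusted p = 0.0416). Seedlings had less of all 3 than post-mature green seed: EEL was at least 110-fold lower (-6.66, adjusted p = 1.61e-14), BBM at least 1.89-fold lower (-2.07, adjusted p = 7.12e-05) and BZIP53 2.31-fold lower (-1.21, adjusted p = 9.69e-06). In that comparison 32.5% of all probe sets passed as lower, and 111 had a log2 decrease at least as large as that of EEL.

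In lec1-1 seed EEL still rose, and BBM and BZIP53 made no step past the threshold. From 24 hours to globular, where 29.9% of all probe sets passed in either direction, EEL differed by 0.30 (limma adjusted p = 0.369), BBM by -0.01 (0.994) and BZIP53 by -0.24 (0.358). From globular to cotyledon, where 15.2% passed, EEL rose 3.56-fold (1.83, adjusted p = 1.79e-05), BBM differed by 0.38 (0.586) and BZIP53 by 0.22 (0.485).

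From cotyledon to mature green EEL rose 6.98-fold in the mutant (log2 difference 2.80, limma adjusted p = 1.02e-08), where 18.8% of all probe sets passed as higher and 421 rose at least as far. Over the same step BBM differed by -0.28 (adjusted p = 0.6) and BZIP53 by -0.29 (0.221). The last mutant step, mature green to post-mature green, did not pass for EEL (0.25, adjusted p = 0.664), BBM (-0.02, 0.989) or BZIP53 (-0.16, 0.739). Of all probe sets, 3.41% passed there in either direction. BBM read below 100 on every array of this step.

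**Figure D3:**
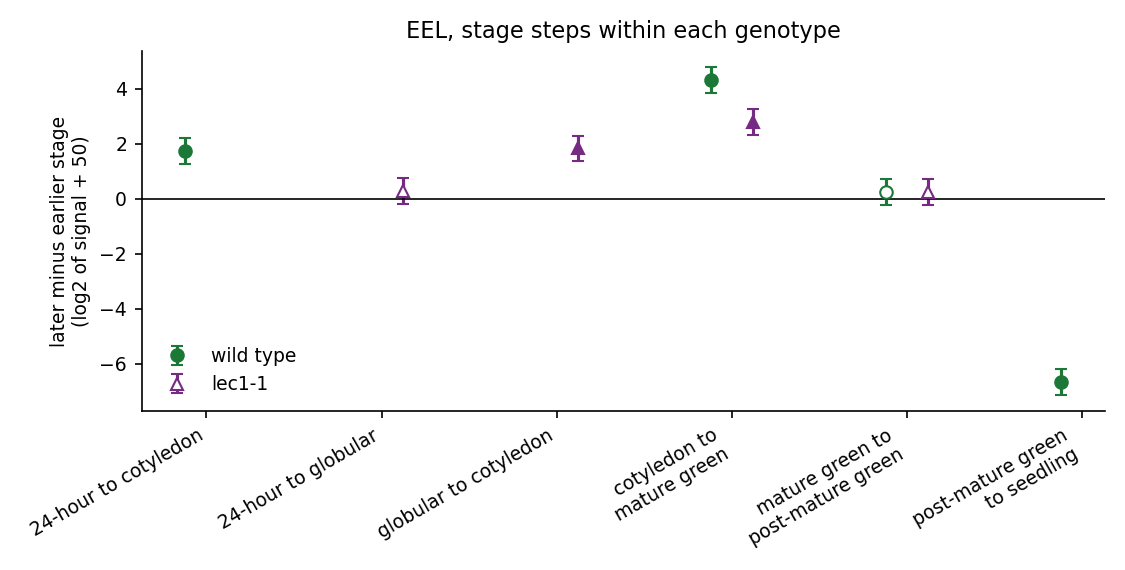
Log2 difference of EEL between consecutive stages (y axis) in wild type and in lec1-1, with 95% intervals from limma. The step from cotyledon to mature green is 4.32 in the wild type and 2.80 in lec1-1, and the step from post-mature green seed to seedling is -6.66.

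Ordered by mean signal, the 10 groups fell into different patterns for the 3 genes. EEL ran from wild-type post-mature green (mean 10951) and mature green (9273), which did not differ beyond their spread (limma adjusted p = 0.41), to lec1-1 post-mature green (4325), which was below wild-type mature green by 1.08 (adjusted p = 0.000984). The lec1-1 mature green group (3634) came next and did not pass against its neighbour above (adjusted p = 0.664), followed after a drop of 2.80 by the cotyledon groups of lec1-1 (485.7) and wild type (411.2), which did not differ beyond their spread (adjusted p = 0.9). After a further drop of 1.64 (adjusted p = 3.93e-05) came lec1-1 globular, wild type at 24 hours, lec1-1 at 24 hours and seedlings, with means from 99 down to 59.0 and no neighbours past the threshold.

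For BBM, wild-type mature green (mean 250.8) and post-mature green (219.1) overlapped, wild-type cotyledon (89.5) was lower than the latter by 0.82 (limma adjusted p = 0.0697), and no pair of neighbours passed anywhere in the order. BZIP53 likewise had no pair of neighbours past the threshold, with means falling from 3489 in wild-type post-mature green to 1780 in lec1-1 post-mature green and 1483 in seedlings. Seed of lec1-1 at post-mature green was thus the lowest of the 9 seed groups in mean BZIP53 signal, and wild-type seed of that stage the highest. Some groups further apart, picked from all pairs, passed the threshold. Wild-type BZIP53 was higher at post-mature green than at cotyledon (0.725, limma adjusted p = 0.00211) and 24 hours (0.661, 0.00405). In lec1-1 it was lower at post-mature green than at 24 hours (-0.471, 0.045) and cotyledon (-0.454, 0.0496). Wild-type BBM was higher at mature green than at 24 hours (2.48, 1.87e-05). The share of all probe sets passing is not given for these pairs.

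Mature green lec1-1 seed was also set against the older wild-type seed of the post-mature green stage. EEL was 2.99-fold lower in the mutant (log2 difference -1.58, limma adjusted p = 1.14e-05), BBM at least 1.89-fold lower (-1.98, adjusted p = 0.000193) and BZIP53 1.74-fold lower (-0.80, adjusted p = 0.00116). Of all probe sets, 20.6% passed as lower in this comparison, which shares its wild-type arrays with the post-mature green comparison above.

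The AtGenome1 arrays give a second profile of EEL, in other samples with stages named differently. Values below 250 were treated as not above background. The arrays read 113.3 and 206.6 in wild-type seed at 24 hours, 194.1 and 105.4 in lec1 seed at 24 hours, 907.6 and 1331.2 in wild-type mid-maturation seed, 1496.7 and 2041.5 in lec1 mid-maturation seed, and 20173.0 and 19564.0 in wild-type late-maturation seed. Both 24-hour groups were below 250, and the 2 mid-maturation groups did not overlap, with the mutant above the wild type. With 1 sample per group there is no test.

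Wild-type EEL on AtGenome1 was at least 4.40-fold higher at mid-maturation than at 24 hours and 18.1-fold higher at late than at mid-maturation (log2 difference 4.18). The share of 8247 probe sets that were at least 2-fold higher with no overlap of arrays was 8.92% for the first of these steps and 11.7% for the second. In lec1 seed EEL was at least 6.99-fold higher at mid-maturation than at 24 hours, where 8.78% met that criterion. Between the genotypes at mid-maturation EEL was 1.59-fold higher in lec1 (0.67), under the 2-fold limit, which 4.53% of probe sets passed as higher. On ATH1 the corresponding differences were 0.19 at the cotyledon stage and -1.32 at mature green, and no label says which of these stages mid-maturation matches.

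**Figure D4:**
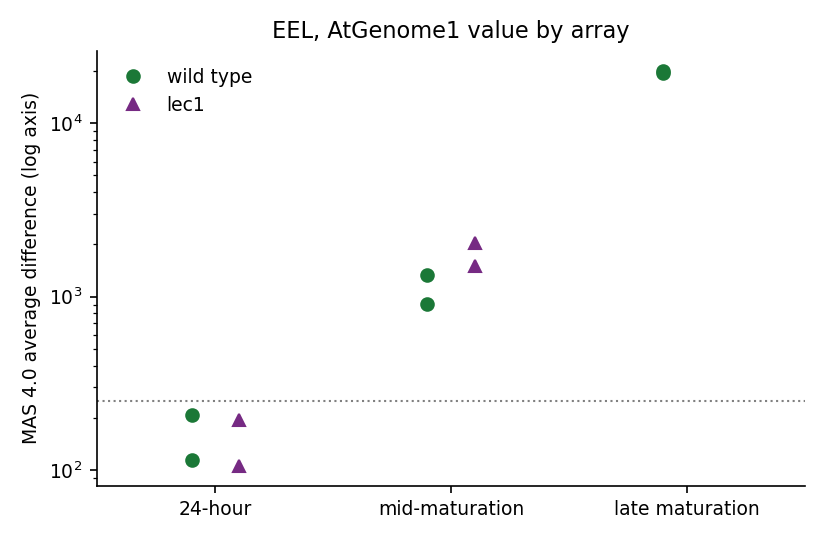
Value of the EEL probe set on each of the 10 AtGenome1 arrays (log axis, scaled units), 2 technical arrays per sample, with the dotted line at 250. Both 24-hour samples lie below the line, the lec1 mid-maturation arrays (1496.7 and 2041.5) above those of the wild type (907.6 and 1331.2), and the wild-type late-maturation arrays at 20173.0 and 19564.0.

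Other members of the families were followed where the annotation named them. Of 16 listed relatives of BBM in the AP2 family, 3 had a tested probe set: SMZ and SNZ, known as repressors of flowering, and locus AT1G72570. At mature green 1 of the 3 was higher and 2 were lower in lec1-1, with a median log2 difference of -1.19 against 0.02 over all probe sets, of which 13% passed as lower and 15.7% as higher. At post-mature green all 3 passed as lower, with a median of -1.39 against -0.02, where 20.5% of all probe sets did. SMZ was at least 2.56-fold lower at mature green (limma adjusted p = 0.00971) and at least 3.11-fold lower at post-mature green (adjusted p = 0.00185), the former call lost under 5 of 14 alternatives, among them an offset of 1 (-1.58, adjusted p = 0.0946) and leaving out wild-type mature green replicate 1 (-0.999, adjusted p = 0.0808). SNZ was at least 1.80-fold lower at mature green (-1.93, adjusted p = 7e-05) and below 100 in both genotypes at post-mature green, where its call (-0.96, adjusted p = 0.0138) was lost under 5 of 14 alternatives and its difference was 0 with a floor of 100.

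Unlike BBM, AT1G72570 differed in opposite directions at the late stages. Its signal at mature green was 12.5 and 100.2 in the wild type against 281.5 to 436 in lec1-1 (log2 difference 2.05, limma adjusted p = 0.000728). At post-mature green it was 1539.7 to 2316 in the wild type against 309.8 to 665.1 in lec1-1 (-1.94, adjusted p = 0.000708), a call lost with an offset of 1 (adjusted p = 0.107). The change of its mutant difference between these stages was -3.98 (adjusted p = 8.2e-05), against 0.26 for BBM.

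Among bZIP genes, the list of group A, which holds EEL, had 2 of 11 named on the chip (FD and AT5G42910), and neither passed the filter on dim signals. Of 8 listed partners and relatives of BZIP53, bZIP44 was tested, and it was lower in lec1-1 at mature green (-0.46, limma adjusted p = 0.0482) and not at post-mature green (-0.08, adjusted p = 0.74). The mature green call of bZIP44 was lost under 12 alternatives, among them leaving out either wild-type array or lec1-1 replicate 2 (-0.33 to -0.54). Beside EEL and BZIP53, 20 probe sets named a gene whose symbol or synonyms contain bZIP or leucine zipper, a set drawn up after the annotation was read that includes FD and bZIP44 and not AT5G42910. Of these 20, 13 were tested.

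At mature green bZIP44 was the only one of these 13 to pass, with a median log2 difference of -0.30 over the 13, where 13% of all probe sets passed as lower and 15.7% as higher. At post-mature green BZIP61 was higher (1.13, limma adjusted p = 0.0241) and AT1G06070, also named bZIP69, was lower (-0.96, adjusted p = 0.000181), with a median of -0.09, where 20.5% of all probe sets passed as lower and 23.7% as higher. BZIP61 was dim there, at 5.0 and 14.1 in the wild type against 60.1 and 103.6 in lec1-1, and its call was lost under 5 of 14 alternatives, among them a floor of 100, where the difference was 0.03 (adjusted p = 0.943). EEL, at -1.32 and -1.33, had the lowest value among these 15 genes at both stages on this scale. With an offset of 1, the dim bZIP43 was lower than EEL at mature green (-2.41 against -1.34) and at post-mature green (-1.73 against -1.34). At mature green bZIP43 was also lower without wild-type replicate 2 (-1.80 against -1.54), and BZIP24 was lower with the offset of 1 (-1.45).

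**Figure D5:**
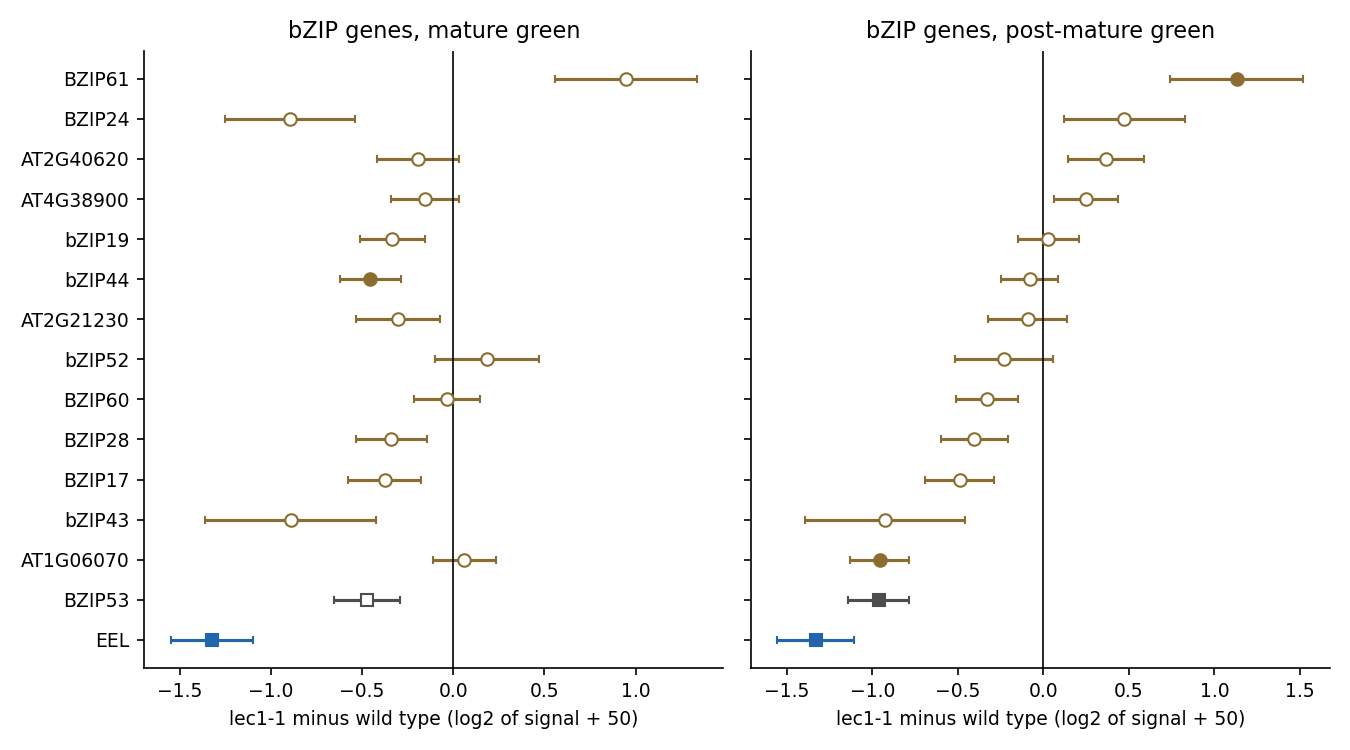
Log2 difference lec1-1 minus wild type (x axis) for 13 other tested bZIP genes, EEL and BZIP53 at mature green and post-mature green; bars are SE and filled points passed the limma threshold. On this scale, with an offset of 50, EEL lies lowest at both stages, whereas bZIP43 lies lower with an offset of 1, and the medians of the other 13 are -0.30 and -0.09.

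Of 14 known or proposed targets of BZIP53 and EEL, mostly storage and late embryogenesis genes, 1 was tested, locus AT3G15670. At mature green its wild-type arrays read 2035.2 and 20214.6 against 15738.9 and 21744.7 in lec1-1, so the groups overlapped. The log2 difference there was 1.51 (limma adjusted p = 0.104), 3.15 with wild-type replicate 1 left out (adjusted p = 0.000199) and -0.13 with replicate 2 left out instead (adjusted p = 0.889). It was -1.88 at post-mature green (adjusted p = 0.0298), where the mean was 78980 in the wild type and 21789 in lec1-1. The latter call was lost under 8 of 14 alternatives, among them leaving out any 1 of the 4 arrays of that stage (-2.17 to -1.60). None of 4 listed BBM targets and none of 12 other listed seed regulators was named on the chip, and they are not analysed here.

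The genes whose pattern most resembled each of the 3 were found by Pearson r on log2(signal + 50) over the 20 ATH1 arrays, which share stages and genotypes, so the r values are a description. Over all 18458 other probe sets tested, named or not, the highest r was 0.986 for EEL, 0.934 for BZIP53 and 0.920 for BBM, and 64 (0.347%) reached r = 0.95 with EEL, against 0 with BBM and 0 with BZIP53. Genes are named below only from the 10408 tested probe sets that stand for 1 annotated gene, each gene once, so closer probe sets without such a name are passed over. Within these, the 5 most like EEL were AT3G01570 (r = 0.982), BETA-VPE (0.978), AT5G60460 (0.976), AT1G65090 (0.976) and AT1G54860 (0.975). BETA-VPE encodes a vacuolar enzyme that processes seed storage proteins. Its mean signal was 342.8 at the cotyledon stage, 13882 at mature green and 34132 at post-mature green in the wild type, and 6559 and 8425 at the last 2 stages in lec1-1. AT1G54860 was at 37277 and 39356 in the wild type at those stages and at 3083 and 6868 in lec1-1. Most opposite among the named genes were ARLA1D (r = -0.977), for a small GTPase of the ADP-ribosylation factor kind, AT1G72170 (-0.953) and AT2G16630 (-0.935). ARLA1D was at 264.1 in wild-type and 417.6 in lec1-1 mature green seed.

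For BBM the closest of these named genes were AT5G11650 (r = 0.920), AT1G53690 (0.899), AT2G34700 (0.897), AT5G59960 (0.893) and AT4G33280 (0.890). At mature green the mean of AT2G34700 was 34247 for the wild type against 667.0 for lec1-1, and at post-mature green 4634 against 208.1. AT5G11650 was at 1404 in wild-type mature green seed and between 188.4 and 393.9 in all groups other than wild-type mature green and post-mature green (838.8). AT1G16870 (r = -0.897), the small GTPase gene RAB6A (-0.882) and AT5G09240 (-0.880) ran most opposite to BBM among them.

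Among the same named genes BZIP53 was most like AT3G44280 (r = 0.898), SKP2A (0.895), AT5G19430 (0.884), AT4G03030 (0.879) and ATN1 (0.871). SKP2A, for an F-box protein that marks cell cycle factors for breakdown, had means of 2107 and 2918 in wild-type mature green and post-mature green seed, 803.5 and 1057 in lec1-1, and 352.7 in seedlings. Most opposite of them were AT4G01310 (r = -0.910), AT5G19750 (-0.910) and ADCL (-0.906), a gene of folate synthesis. AT4G01310 was highest in seedlings (12852), where BZIP53 was lowest.

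Among the 3 genes themselves, r over the 20 arrays was 0.659 between BBM and EEL, 0.649 between BBM and BZIP53 and 0.440 between EEL and BZIP53. Over the 16 arrays of the 4 shared stages these values were 0.603, 0.634 and 0.260.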

How the data were processed

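The deposited ATH1 and AtGenome1 values are linear intensity values, which the authors computed in Microarray Suite 5.0 (target 500) and 4.0 (target 2500), per the labels. On AtGenome1, 12.4% to 16.4% of an array's values did not exceed 0. The labels of those arrays name the ATH1 chip in the description, and AtGenome1 in the title. Array medians were 176.9 to 217.4 on ATH1, and 58.5% to 66.4% of its probe sets reached 100. The number of arrays limits the precision. Gene names came from the platform annotation, updated through RefSeq, with 13513 ATH1 probe sets naming 1 gene, 503 several and 8730 none.

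ATH1 values were tested with limma 3.58.1 (R 4.3.3), using lmFit and an intensity-trended eBayes on log2(signal + 50), in 1 model of 20 arrays (10 residual degrees of freedom), over 18459 probe sets with 100 or more on at least 2 arrays, controls left out. Tests were two-sided, Benjamini-Hochberg adjusted over all probe sets of a contrast, threshold 0.05, and the code was tested on simulated data. AtGenome1 values were floored at 250 and not tested. The text names the 3 genes, every tested gene of the lists of relatives, partners, regulators and targets (at most 6 a list), and per member the 5 most and 3 least correlated genes among probe sets of 1 gene; other bZIP genes and markers were named after their values were seen. The genes and lists were chosen with earlier results of these data known. Alternatives were offset 1, a floor of 100, no filter, quantile and 75th percentile scaling, no trend, array weights, lot statement, replicate block, only the groups compared, and leaving out each array. Same-numbered wild-type and lec1-1 arrays deviated together with r = 0.131 at 24 hours, -0.038 at cotyledon, 0.030 at mature green and 0.014 at post-mature green. These values show no strong shared shift but cannot exclude that the numbers pair samples, which no label states.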

Additional observations from a re-analysis of the deposited data

Results flagged for a closer look

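Differences of the lec1-1 effect between stages were flagged for all 3 genes, by a test that many other probe sets also passed. The joint F statistic over the 3 changes was 12.08 for EEL, 9.89 for BZIP53 and 8.978 for BBM, each past the limma threshold, as for 36.7% of all probe sets. For BBM this is not independent of the filter on dim signals, passed only through wild-type mature green and post-mature green seed. The single change that passed was that of EEL from cotyledon to mature green, -1.518 on the log2 scale.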

How the results depend on the processing

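Of 168 values of the lec1-1 differences of the 3 genes under the alternatives, 165 stayed on the same side of the limma threshold, and 3 passed where the reported value did not. All 3 belong to BZIP53 at mature green: -0.474 with the replicate block (adjusted p = 0.0317), and 2 of the values from leaving out an array, which ranged from -0.699 to -0.250. The replicate block turned no other lec1-1 difference of the 3 genes, and it also brought the BZIP53 change from cotyledon to mature green past the threshold. BBM at mature green ranged from -4.27 with offset 1 to -1.31 with a floor of 100, and at post-mature green from -4.13 to -0.92, since dim signals set its size. EEL ranged from -1.54 to -0.96 and from -1.37 to -1.11. BZIP53 at post-mature green ranged from -1.16 to -0.77. Of 506 values in the other comparisons, 489 stayed, 7 lost and 6 gained a call, and 4 moved. BBM from wild-type cotyledon to mature green lost its call with offset 1 (1.47, adjusted p = 0.261). The EEL steps from 24 hours to mid-maturation on AtGenome1 moved with the floor, from 2.85 at 100 to 1.14 at 500 in the wild type and from 3.61 to 1.81 in lec1. For the listed relatives and markers, 1170 of 1232 values stayed, 46 lost and 16 gained a call. No value reversed a call.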
